A study of Mus musculus with 59 samples.

Results

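Granulocyte-monocyte progenitors (GMPs) of a conditional Pu.1 mouse line were compared between animals that had lost Pu.1 and wild-type (WT) animals. The members are the 4 libraries that the labels place in these groups, out of 59 samples in the series. Both Pu.1-KO animals had the genotype Pu.1 F/F, and both Pu.1-WT animals were Pu.1 +/+, so n = 2 per genotype. All 4 animals were C57BL/6 and carried 1 copy of Mx1Cre (Cre +/-), an interferon-responsive Cre that is active in haematopoietic cells and also in some other tissues, so the controls expressed the same recombinase. Cells came from bone marrow 3 weeks post induction (w.p.i.). The age and sex of the mice are not given in the labels, and the agent that induced Cre in this line is stated there for none of the 4. The wider study examined the H3.3 chaperone Daxx in haematopoiesis, and asked with Pu.1 F/F alleles what depends on Pu.1. Each GMP column carries its own animal number, which shows no replicate number of the labels, so the libraries are called a and b within each genotype.

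Pu.1, encoded by Spi1, is a transcription factor of the ETS family that binds purine-rich DNA around a GGAA core. It is required to form granulocytes, monocytes and B cells, and it acts beside factors of the C/EBP, IRF and RUNX families and against GATA factors. GMPs first make the proteases of primary granules, and the proteins of the later specific and gelatinase granules follow as neutrophils mature.

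The 4 libraries held 10699070 to 15035072 gene reads, and 24539 to 27760 of the 51810 listed genes were above 0. Of these genes, 19337 had a mean normalized count of 10 or more and were tested. The normalized count is the read count of a gene divided by 1 size factor per library. The libraries did not behave alike. The first principal component held 65.3% of the variance and placed the KO libraries at 91.7 and 32.0 and the WT libraries at -36.2 and -87.5, so that each genotype was spread widely. Y-linked genes were high in Pu.1-KO a and low in the other 3. Ddx3y read 6.35 and 2.61 in WT and 556 and 11.1 in KO, and Uty read 32.8 and 23.5 in WT and 701 and 29.97 in KO. All 4 Y-linked genes tested were called higher. Without Pu.1-KO a 2 of them failed the filter on low values and the other 2 were not called, and none was called under cyclic loess. The part of sex in other differences cannot be told apart from that of the animal. Change also moved with level. The median log2 fold change was 0.75 for genes with a mean of 10 to 20, 0.34 at 50 to 200 and -0.31 at 200 to 1000. Pu.1-KO a against Pu.1-KO b showed the same shape within 1 genotype, from 0.51 to -0.25 over those levels. A cyclic loess scaling, which removes such a slope, was chosen after seeing the data, and its counts are given beside those of the lists that it moves.

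The GMP label was checked against 10 marker genes, all of which were tested. Their summed level was 270635 and 295667 in WT and 109452 and 192494 in KO. Mpo and Elane, neither of them called, made up most of each sum. Mpo alone read 161796 and 171860 in WT and 59883 and 105067 in KO. Of the 10 GMP markers, 5 were called lower and 1 was called higher. The 10 markers of late neutrophils summed to 37080 and 29494 in WT and to 170301 and 167588 in KO, and all 10 were called higher. In Pu.1-KO a the late neutrophil sum was above the GMP sum. The 10 monocyte or macrophage markers summed to 23663 and 26159 in WT and to 22606 and 32197 in KO, and 1 of them was called. The B cell sum was 1353 and 1427 in WT and 4823 and 2782 in KO, with Ms4a1 listed at 0 throughout. The erythroid sum was 468 and 1157 in WT and 2736 and 694 in KO, with Alas2 listed at 0 throughout. Genes that every such cell uses, such as the ribosomal protein gene Rpl24, were listed at 0 in all libraries too, so a 0 in these tables does not show that a gene was silent. Fewer cells of a type and less RNA per cell cannot be told apart in such bulk libraries.

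Spi1 itself (chr2:91082390-91115756, plus strand, GRCm38) was not called. Its normalized count was 3395 and 3934 in WT and 2589 and 2707 in KO. Both KO libraries lay below both WT libraries, but by little. The log2 fold change was -0.46 (SE 0.24, limma adjusted p = 0.153, n = 2 per genotype), and it was -0.09 under cyclic loess. The counts cover the whole gene, exons outside the floxed part included, so a transcript that lacks the deleted part still counts and the value does not measure the deletion. The nearest gene downstream moved far more. Mybpc3, a cardiac myosin-binding protein gene on the same strand, starts 2387 bases after the end of Spi1 (chr2:91118144-91136516). It read 72.0 and 41.8 in WT and 2317 and 2945 in KO, which is 46.3-fold higher (log2 5.55, SE 0.27, limma adjusted p = 1.06e-88). Whether these reads start at Mybpc3 or upstream of it was not tested.

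In Pu.1-KO against Pu.1-WT GMPs 1770 genes were called higher and 1642 lower, 17.6% of the genes tested (limma, adjusted p under 0.05). The 1770 include the 4 Y-linked genes, and the parts of genotype, sex and animal in these calls cannot be told apart. The called rises were larger: 1381 of the 1770 were at least 2-fold, against 476 of the 1642 falls. They also lay at lower levels. At a mean of 50 to 200, 755 genes were called higher and 172 lower, while at 1000 to 5000 it was 76 and 568. The part of level in this difference of size was not tested. The libraries of the 2 genotypes did not overlap for 3384 of the 3412 called genes. That is a weak criterion here, since 65% of all genes tested did not overlap, 31.5% with KO higher and 33.5% with KO lower. The count rested on single libraries. It was 520 without Pu.1-WT a (2.66% of the genes then tested, 2.44% higher and 0.214% lower) and 151 without Pu.1-WT b (0.767%, 0.691% higher and 0.0762% lower). It was 2893 without Pu.1-KO a (15.5%, 5.67% higher and 9.86% lower) and 8163 without Pu.1-KO b (42.3%, 14.6% higher and 27.7% lower). Cyclic loess called 12.1%, with 7.1% higher and 4.98% lower. A set of 113 genes (0.584%), 101 higher and 12 lower, was called with all 4 libraries and with each left out in turn. The list counts that use one of these fits have its share as background. Those from the fit with all 4 libraries have 17.6%, with 9.15% higher and 8.49% lower.

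**Figure D1:**
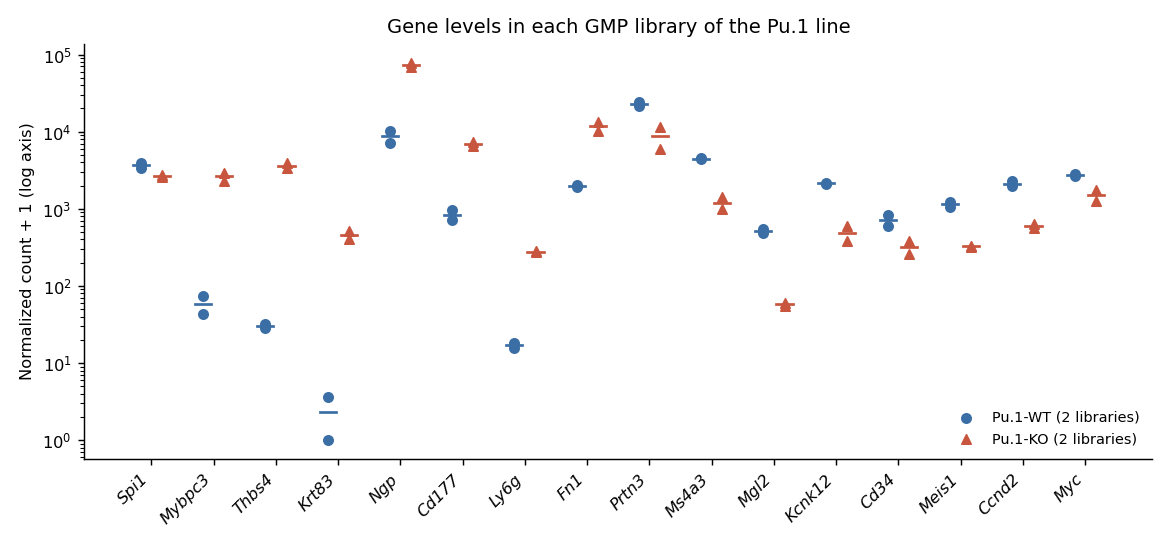
Normalized count + 1 on a log axis of 16 genes in each GMP library of the Pu.1 line. Circles are the 2 Pu.1-WT libraries, triangles the 2 Pu.1-KO libraries and short lines the group means. Mybpc3, Thbs4 and Krt83 rose most, while Spi1 stood at 3395 and 3934 in WT and at 2589 and 2707 in KO.

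The largest rises were in genes with low counts in WT GMPs. The rule ranked by log2 fold change and asked for a mean of 50 in the higher group only, which favours such genes. Thbs4 (chr13:92751590-92794818), a matricellular glycoprotein of the thrombospondin family, read 30.7 and 27.4 in WT and 3389 and 3884 in KO. The KO libraries were 125-fold higher (log2 6.92, SE 0.28, limma adjusted p = 3.79e-130). Krt83 (chr15:101485130-101491512), a hair keratin, read 0 and 2.61 in WT and 401 and 509 in KO. Since only 2 reads stand behind the WT value, the ratio was 387 with a 95% counting interval of 107 to 3197, for these libraries only. Its neighbour Krt81, also a hair keratin, rose from 18.0 and 0 to 121 and 57.4.

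The other large rises were in genes of varied kinds. Clu, which encodes the extracellular chaperone clusterin, went from 32.8 and 14.4 to 311 and 1088. Orm1, an acute-phase plasma protein, went from 51.8 and 20.9 to 559.8 and 568. Cd5l, a secreted scavenger receptor protein of macrophages, went from 10.6 and 0 to 77.0 and 68.5. In each of these genes both KO libraries lay above both WT libraries, which the rule that chose them required. Ptgdr, a prostaglandin D2 receptor, rose to 117 and 69.4 from 4.23 and 0. Hcar2, the receptor of nicotinic acid, rose to 59.3 and 58.2 from 0 and 7.83. Sh2d2a, a T cell adaptor, rose to 306 and 194 from 5.29 and 9.14. H2-Q10, a class Ib histocompatibility gene, rose to 146 and 117 from 6.35 and 3.92. The log2 fold changes of these 7 genes lay between 4.05 (Orm1) and 5.32 (Ptgdr), on the log2(normalized count + 1) scale, which understates the change of genes this low. Of the 12 largest rises chosen by a fixed rule, 11 kept their calls with each library left out, and Krt81 did not. Cd5l and Hcar2 were not called by DESeq2.

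The largest falls were smaller in size. Mgl2, a C-type lectin of macrophages and dendritic cells, read 484 and 552 in WT and 53.1 and 59.9 in KO, 9.16-fold lower (log2 -3.17, SE 0.33, limma adjusted p = 1.1e-18). Clec4b2, also a C-type lectin, read 281 and 257 in WT and 53.1 and 21.4 in KO (log2 -2.96, SE 0.40). Kcnk12, a two-pore potassium channel subunit, read 2108 and 2191 in WT and 377 and 589.9 in KO (log2 -2.19, SE 0.24). All 3 kept their calls whichever library was left out. Gdf3, a TGF-beta family ligand, fell to 21.6 and 23.1 from 111 and 165. Mir17hg, the host gene of the miR-17-92 cluster, fell to 16.9 and 7.71 from 84.7 and 102. Terc, the RNA of telomerase, fell to 23.9 and 28.3 from 122 and 131, and the protease gene Klk8 to 19.2 and 14.6 from 75.1 and 94.0. These 4 were not called in every fit with a library left out.

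Genes of the later neutrophil granules rose together. Of 17 tested members, out of 18 listed, 14 were called higher and none lower, where 9.15% of all genes were called higher. Their median log2 fold change was 2.26, and that of all genes was -0.00229. The 14 rises ran from 0.65 (Cebpe, a transcription factor of granulocyte maturation) to 4.05 (Ly6g). The members that were not called were Chil3, Fcnb and Cxcr2, the last of which was chosen after its value was seen.

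Ngp, a cathelicidin-related granule protein and the most abundant of them in KO, read 10314 and 7079.6 in WT and 68822 and 78058 in KO (log2 3.10, SE 0.33, limma adjusted p = 1.27e-17). Cd177, a neutrophil surface glycoprotein, read 956 and 718 in WT and 7381 and 6593 in KO (log2 3.07, SE 0.24). Mmp9, the gelatinase of late granules, read 336 and 101 in WT and 1591 and 1575 in KO (log2 3.10, SE 0.26). The genotypes were well apart in all of these, and the KO libraries lay close to each other. Ly6g, the surface antigen by which mouse neutrophils are sorted out, read 14.8 and 16.97 in WT and 279.5 and 277 in KO (log2 4.05, SE 0.46). Without Pu.1-KO a 15 members were higher and none was lower. Leaving out Pu.1-WT b left 9 higher, all of which were called in every such fit. Fcnb (4574 and 5523 in WT, 3848 and 4263 in KO) was the only member whose value in both KO libraries lay below WT.

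Primary granule genes went the other way. Of 12 members, all tested, 6 were called lower and none higher, where 8.49% of all genes were called lower. Their median was -0.75. Prtn3 (proteinase 3) read 21554 and 24162 in WT and 5967 and 11571 in KO (log2 -1.46, SE 0.29, limma adjusted p = 5.46e-05). Ms4a3, a membrane protein of granulocyte-monocyte progenitors, read 4387 and 4528 in WT and 983 and 1404 in KO (log2 -1.92, SE 0.24). It was the only member called lower whichever library was left out. Prss57, a further granule serine protease, read 1232 and 1336 in WT and 388 and 711 in KO, and Plac8 read 7202 and 7961 in WT and 2746 and 5081 in KO.

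Mpo and Elane, the most abundant genes of the list, were not called. Mpo (myeloperoxidase) read 161796 and 171860.0 in WT and 59883 and 105067 in KO (log2 -1.07, SE 0.50, limma adjusted p = 0.111). Elane (neutrophil elastase) read 56439 and 65854 in WT and 28106 and 52959 in KO (log2 -0.66, SE 0.39, adjusted p = 0.217). Both were lower in both KO libraries, with Pu.1-KO b much nearer to WT than Pu.1-KO a. Under cyclic loess 6 members of the list were lower and 2 higher, and without Pu.1-KO a 8 were lower and 2 higher.

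The sequence just before the start of 4 neutrophil genes is shown because each holds the Pu.1-type motif GAGGAAGT, in capitals. Prtn3 was called lower and Ly6g higher, while Mpo and Elane were not called. They are RefSeq sequences of GRCm38.p6, written 5' to 3' on the plus strand, where all 4 genes lie. The windows run from 250 bases before to 50 after the start, and the stretches end before the first exon. The motif begins 95 bases before the start of Prtn3 (shown at chr10:79879512-79879613), 85 before Elane (chr10:79886167-79886246), 224 before Mpo (chr11:87793534-87793580) and 31 before Ly6g (chr15:75155170-75155239). A second annotated start of Ly6g lies further downstream, with the same motif 99 bases before it.
Prtn3: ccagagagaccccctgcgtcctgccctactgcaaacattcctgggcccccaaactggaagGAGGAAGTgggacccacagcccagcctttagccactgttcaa
Elane: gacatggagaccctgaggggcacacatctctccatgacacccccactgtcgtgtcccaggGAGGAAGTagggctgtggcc
Mpo: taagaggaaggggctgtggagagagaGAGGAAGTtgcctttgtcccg
Ly6g: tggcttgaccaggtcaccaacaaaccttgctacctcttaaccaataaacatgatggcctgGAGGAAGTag

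Over all genes the motif did not separate the called from the rest. Searched on both strands (ACTTCCTC on the other), it stood in 887 of 27025 promoter windows (3.28%) and in 419 of 13723 windows of tested genes (3.05%). It stood in 37 of 1261 windows of genes called higher (2.93%) and in 40 of 1256 of genes called lower (3.18%). Of the genes called higher with every library left out in turn, 6 of 79 matched windows held it (7.59%), and of those called lower 0 of 8. A match describes the letters only and is not a measured binding site.

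**Figure D2:**
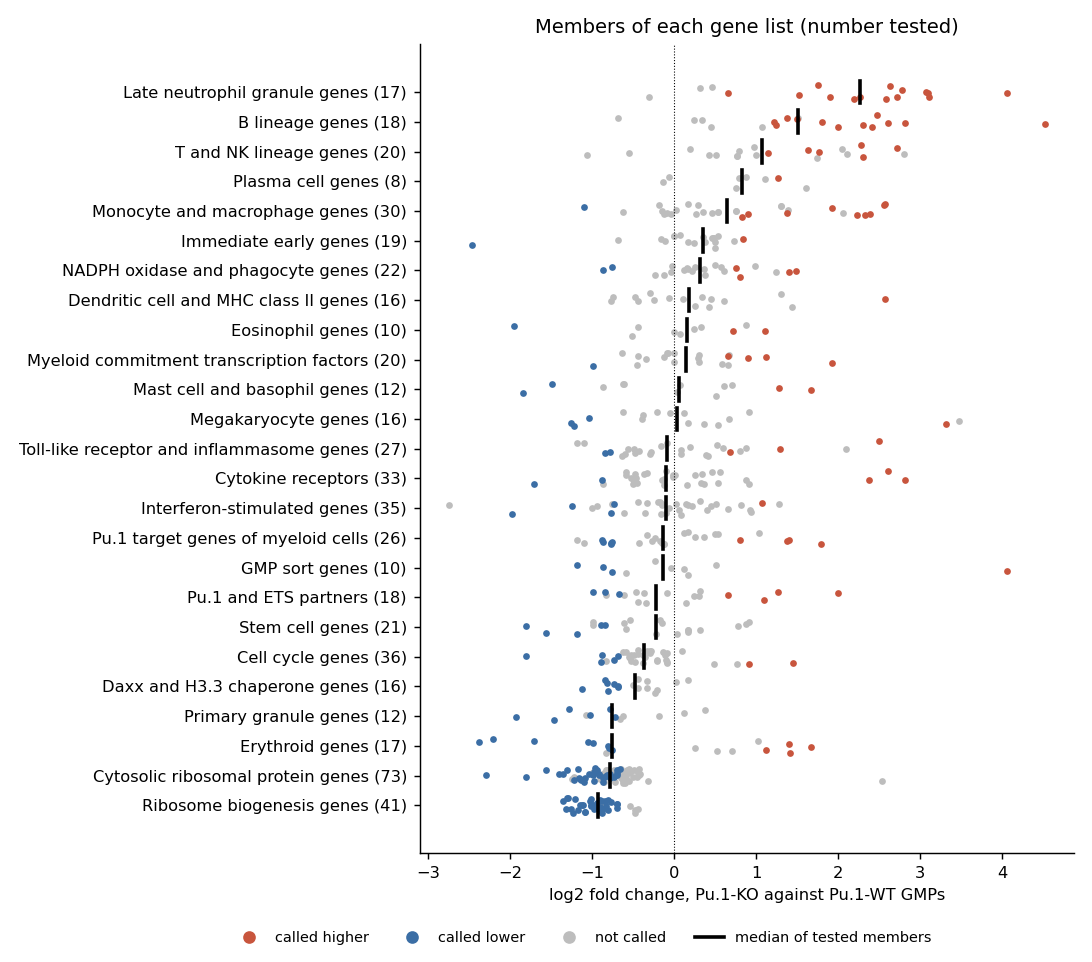
log2 fold change of each tested member of 25 gene lists, Pu.1-KO against Pu.1-WT GMPs, ordered by the list median (black line). Red points were called higher, blue points lower and grey points were not called. Late neutrophil granule genes have the highest median, 2.26, and primary granule genes lie at -0.75.

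Some genes of monocytes and macrophages rose and most did not pass the test. Of 30 members, all tested, 9 were called higher and 1 lower, with a median of 0.64. Fn1 (fibronectin) read 1939.6 and 2062 in WT and 10261 and 13467 in KO (log2 2.55, SE 0.25, limma adjusted p = 2.48e-21). Vcan, a proteoglycan of classical monocytes, read 73.0 and 61.4 in WT and 367 and 443 in KO, and Lgals3 (galectin 3) read 149 and 221 in WT and 986 and 920.4 in KO. These 3 kept their calls with each library left out. Clec4a1, a myeloid lectin, rose from 18.0 and 5.22 to 70.8 and 40.2, with no call under cyclic loess. The fall was in Clec12a, an inhibitory myeloid lectin (log2 -1.09), named after its value was seen. Counts were 12 higher and 1 lower under cyclic loess.

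Among 26 known Pu.1 target genes of myeloid cells, all tested, 4 were called higher and 5 lower, and the median was -0.14. Lyz2 (lysozyme) rose from 4098 and 4049 to 13250.1 and 15040.5 (log2 1.79, SE 0.27, limma adjusted p = 3.3e-09). Itgb2, the beta chain of the leukocyte integrins, rose from 2995 and 3027 to 7299 and 8630.3 (log2 1.40), and the protease gene Ctss from 420.1 and 466 to 992 and 1328 (log2 1.37). Cybb, the catalytic subunit of the phagocyte NADPH oxidase, read 4105 and 4197 in WT and 7153 and 7333 in KO (log2 0.80). Csf2ra, a receptor chain of GM-CSF, fell from 1335 and 1429.8 to 719 and 780.0 (log2 -0.88, SE 0.24, limma adjusted p = 0.00435). The genotypes did not overlap in any of these. The other 4 falls, in the Fc receptor genes Fcgr2b and Fcgr3 and in the kinase genes Btk and Fes (the last 2 named after their values were seen), lay between -0.87 and -0.76. The split was 8 higher and 3 lower under cyclic loess, and no member kept its call in every fit with a library left out.

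The list of NADPH oxidase and phagocyte genes shares some of these members. Of 22 tested, 4 were higher and 2 lower, with a median of 0.31, and 10 were higher and 1 lower under cyclic loess. Fcer1g, the signalling chain of Fc receptors, was its largest rise (697 and 655 in WT, 1522 and 2365 in KO, log2 1.49). Among 27 tested genes of Toll-like receptors and inflammasomes 3 rose and 2 fell, where 17.6% of all genes were called. The list as a whole was thus called about as often as all genes. Tlr13, a sensor of bacterial ribosomal RNA, rose from 56.1 and 27.4 to 275 and 185, and Tlr7, a sensor of single-stranded RNA, from 52.9 and 48.3 to 130.1 and 121. Irak1, a kinase downstream of these receptors, fell from 2056 and 2171 to 993 and 1523. Nlrc4, an inflammasome sensor, fell from 345 and 426 to 172 and 266. Under cyclic loess 1 member of the list was lower.

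Of 33 tested cytokine receptors 3 rose and 2 fell, with a median of -0.10, where 17.6% of all genes were called. The rises were in Il7r, the interleukin 7 receptor of lymphoid progenitors (9.52 and 11.8 in WT, 77.0 and 83.9 in KO, log2 2.81), in Il18r1 (66.7 and 47.0 in WT, 336 and 354 in KO, log2 2.60) and in the interleukin 1 decoy receptor Il1r2 (228 and 69.2 in WT, 787 and 551 in KO, log2 2.38). The first 2 kept their calls with each library left out. Besides Csf2ra the erythropoietin receptor gene Epor fell (76.2 and 103 in WT, 13.9 and 49.7 in KO, log2 -1.71). Epor lost its call under edgeR and DESeq2. Under cyclic loess 7 members were higher, and without Pu.1-KO b 5 were higher and 12 lower.

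Among Pu.1 and its partner factors, 4 of 18 tested members rose and 3 fell. Spib, the closest relative of Pu.1, read 44.4 and 32.6 in WT and 194 and 124 in KO (log2 2.00, SE 0.44, limma adjusted p = 2.61e-04). Irf4, a partner of Pu.1 in B cells, read 72.0 and 65.3 in WT and 195 and 142 in KO, and Ets1, a lymphoid ETS factor, read 1274 and 1402 in WT and 2904 and 2823 in KO. Myb, a factor of progenitor proliferation, fell from 9657 and 11684 to 4478 and 6446 (log2 -0.98, SE 0.26). The levels of the Spib and Irf4 transcripts stayed low. Of 20 tested factors of myeloid commitment 4 rose and 1 fell, and 2 were lower under cyclic loess. Bach2, a repressor of myeloid genes in lymphoid cells, rose from 1075 and 1019.8 to 2889.8 and 1799. Klf4, a factor of monocyte differentiation, rose from 518 and 543 to 956 and 1037. None of these was called in every fit with a library left out.

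Genes of the B lineage were higher in KO. Of 18 tested members, out of 23 listed, 12 were called higher and none lower, and their median was 1.51. Ebf1, the commitment factor of the lineage, was the highest of them with 906 and 979 in WT and 3293 and 1819 in KO (log2 1.38, SE 0.24). Pax5, which maintains B cell identity, read 242 and 232 in WT and 1084 and 639 in KO (log2 1.81, SE 0.26), and kept its call with each library left out. Both are named outside the rule, after their values were seen. The other called members were lower in level. Igll1, part of the surrogate light chain of the pre-B cell receptor, read 5.29 and 0 in WT and 50.05 and 63.4 in KO (log2 4.51, SE 1.04). Cd22, an inhibitory lectin of B cells, read 22.2 and 7.83 in WT and 77.8 and 95.9 in KO. Both KO libraries lay above both WT libraries for these 4 genes. Without Pu.1-KO a 8 members were higher and without Pu.1-WT b 4, and 10 were higher under cyclic loess. Genes at levels of 20 to 50 had a median log2 fold change of 0.68 as a whole.

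Genes of T and NK cells rose in fewer members. Of 20 tested, out of 28 listed, 6 were called higher, with a median of 1.07, but 1 under cyclic loess and 2 without Pu.1-KO a. Prf1 (perforin) was the 1 that stayed called in every fit with a library left out (12.7 and 11.8 in WT, 88.5 and 83.0 in KO, log2 2.71). Lat, an adaptor of T cell receptor signalling, read 31.7 and 32.6 in WT and 119 and 104 in KO. Of 8 tested plasma cell genes 1 was called, Irf4, and none under cyclic loess. Of 16 dendritic cell and MHC class II genes 1 was called, Ly6d (20.1 and 1.31 in WT, 59.3 and 27.4 in KO), and none under cyclic loess.

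Erythroid genes moved both ways. Of 17 tested, 8 fell and 4 rose. Car1 (carbonic anhydrase 1) fell from 668 and 702 to 254 and 67.6 (log2 -2.37, SE 0.29, limma adjusted p = 4.66e-14), and Sphk1 from 107 and 104 to 40.0 and 11.99. The largest rise was in the globin gene Hba-a1, which read 51.8 and 171 in WT and 537 and 170.4 in KO. Its genotypes overlapped, since Pu.1-KO b lay within the WT range, and no member was called higher without Pu.1-KO a or under cyclic loess, which left 5 lower. Near-identical globin copies can share reads.

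Of 16 tested megakaryocyte genes, 3 fell and 1 rose, where 17.6% of all genes were called. Gfi1b, a repressor in megakaryocyte and erythroid cells, fell from 179.9 and 176 to 93.2 and 59.1. Tal1, a factor of the same lineages, fell from 493 and 603 to 286 and 190.1, and the platelet chemokine gene Pf4 from 104 and 231 to 74.7 and 75.3. Gp1bb, a platelet receptor subunit, rose from 1.06 and 11.8 to 68.5 and 36.0, with no call under cyclic loess.

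Of 12 tested mast cell and basophil genes, out of 16 listed, 2 rose and 2 fell, where 17.6% of all genes were called. Mcpt8 and Prss34, proteases of basophils, rose from 96.3 and 92.7 to 219 and 242 and from 130.2 and 259 to 619 and 551. Hdc, the enzyme that makes histamine, fell from 2453 and 2848 to 787 and 1119, and Ms4a2, a chain of the IgE receptor, from 181 and 232 to 80.8 and 39.4. The eosinophil list was split as well. Its granule genes Prg2 (2307 and 2007 in WT, 4934 and 4386 in KO, log2 1.11) and Epx (921 and 898 in WT, 1381 and 1618 in KO, log2 0.72) rose. Siglecf, a surface lectin of eosinophils, fell from 426 and 487 to 126 and 109.6 (log2 -1.95, SE 0.30, limma adjusted p = 2.75e-08), whichever library was left out. The other 7 of its 10 members were not called, where 17.6% of all genes were called.

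Stem cell genes did not rise in any tested member. Of 21 tested, out of 24 listed, 5 fell, with a median of -0.22. Meis1, a homeobox factor of stem and progenitor cells, read 1069 and 1217 in WT and 322 and 330.5 in KO (log2 -1.80, SE 0.25, limma adjusted p = 2.01e-10). Sox4 read 771 and 815 in WT and 271 and 267 in KO, and Hoxa7 read 286 and 317 in WT and 120.1 and 218 in KO. Cd34, by which GMPs are sorted, read 594 and 842 in WT and 258 and 377 in KO (log2 -1.18). Under cyclic loess 2 members were higher, and Hoxa7 was not called.

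The genes of the sorting antigens were measured as RNA. The gate was set on surface protein, so these values do not check it. Of 10 tested, out of 13 listed, 3 fell (Cd34, Fcgr2b and Fcgr3) and 1 rose (Ly6g). Fcgr3, a gene of the CD16/32 antigen, read 2058 and 2239 in WT and 1033 and 1563 in KO, and Fcgr2b, the other, read 898 and 1001 in WT and 441 and 608 in KO. Under cyclic loess 3 of these members were higher and 2 lower. Kit was not called, with 4618 and 5299.9 in WT and 2979.9 and 3639.6 in KO (log2 -0.59, SE 0.25, limma adjusted p = 0.0761).

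Of 36 tested cell cycle genes 5 fell and 2 rose, with a median of -0.37, where 17.6% of all genes were called. Under cyclic loess 5 were higher and 3 lower, with a median of -0.02. The D cyclins went in opposite directions. Ccnd2 fell from 1948 and 2267 to 569.8 and 631 (log2 -1.81, SE 0.24, limma adjusted p = 1.12e-11), also with each library left out. Ccnd3 rose from 1636 and 1549.9 to 2798 and 3224 (log2 0.92, SE 0.24). E2f2, a factor of S phase entry, rose from 688 and 629 to 1946 and 1649.9, and Myc fell from 2663 and 2850.4 to 1260.5 and 1764. Without Pu.1-KO b 25 members were lower.

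Of 35 tested interferon-stimulated genes 4 were lower and 1 was higher, where 17.6% of all genes were called. Under cyclic loess 3 were lower and none higher. Oas1a, an RNA sensor enzyme, fell from 168 and 178 to 39.3 and 47.9 (log2 -1.97, SE 0.42), and its relative Oas3 rose from 79.4 and 101 to 153 and 231 (log2 1.07, SE 0.36). The other falls that the rule names were in Oasl1 (98.4 and 99.2 in WT, 60.1 and 28.3 in KO) and in the guanylate-binding protein gene Gbp3 (1499 and 1912 in WT, 729 and 1363 in KO). Immediate early genes gave 1 call each way of 19 tested, Zfp36 higher (595 and 751 in WT, 1027 and 1401 in KO) and the heat shock gene Hspa1b lower (76.2 and 64.0 in WT, 3.08 and 39.4 in KO), but 8 members were higher and none lower under cyclic loess.

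Of 16 tested genes of H3.3 deposition and retroelement silencing, 7 fell and none rose, with a median of -0.47. Cyclic loess left 3 lower and made 1 higher. The largest falls were in Dnmt3b, a DNA methyltransferase (522 and 706 in WT, 226 and 341 in KO, log2 -1.13), and in the H3.3 chaperone gene Hira (257 and 316 in WT, 140.1 and 179 in KO, log2 -0.84). The call of Hira was lost under edgeR, DESeq2 and cyclic loess. Trim28, a co-repressor of endogenous retroviruses, fell from 5144 and 5903 to 2566 and 3837, and Cbx5 from 4857 and 4998 to 2255 and 3517. Daxx read 788 and 787 in WT and 558 and 701 in KO and was not called (log2 -0.33, SE 0.25, limma adjusted p = 0.33). Fbp1, an enzyme of gluconeogenesis, read 203 and 159 in WT and 302 and 309 in KO (log2 0.76, SE 0.30, adjusted p = 0.0613), and was called under cyclic loess. Its neighbour Fbp2 stayed at 8.47 and 10.4 in WT and at 37.7 and 10.3 in KO, also without a call.

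**Figure D3:**
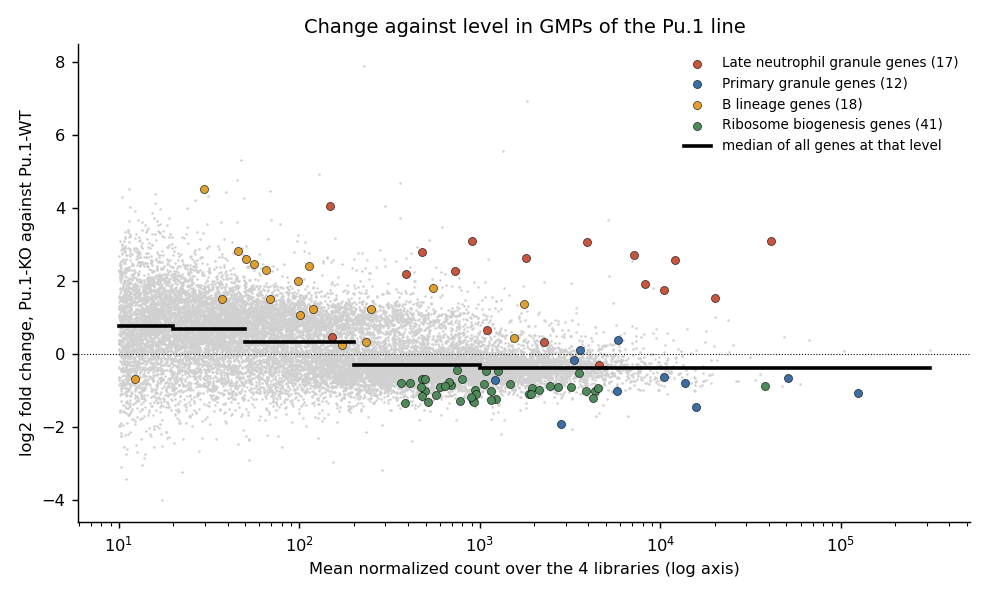
log2 fold change against the mean normalized count (log axis) of all 19337 tested genes in GMPs, with 4 lists in colour. Black lines are medians at each level, which fall from 0.75 at 10 to 20 to -0.39 at 5000 and above. Late neutrophil granule genes lie above the line at high levels, and B lineage genes lie mostly at low levels.

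GMPs of a second line at 3 w.p.i. gave a measure of the same deletion that the 4 libraries did not enter. There, double-KO (DKO) mice (Daxx F/F and Pu.1 F/F) have 2 libraries and Daxx-KO mice 3, and both groups lack Daxx. Among 13714 tested genes 8 were called higher and none lower in DKO against Daxx-KO (limma, 0.0583%). They were Thbs4, Mybpc3, Clu, Itgb7, Trib1, Cyp11a1, Tox3 and 1700030N03Rik, named because they were called there, and 7 of the 8 were also called higher in Pu.1-KO GMPs. Thbs4 read 5.86, 2.85 and 3.95 in Daxx-KO and 2061 and 498 in DKO. Mybpc3 read 28.3, 55.1 and 15.8 in Daxx-KO and 4579 and 996 in DKO. Clu read 10.7, 35.2 and 52.4 in Daxx-KO and 1225 and 665 in DKO. All DKO libraries lay above all Daxx-KO libraries for these genes, and above the 3 WT libraries of that line.

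The genes called in the Pu.1 line whichever library was left out mostly moved the same way in the Daxx line. Of 94 such genes called higher and tested in both, 90 were higher in DKO than in Daxx-KO, where 49.3% of all genes tested in both were, and for 47 (50%) the libraries did not overlap, where 10.6% of the 13486 genes tested in both did so (10.7% of all genes tested in the Daxx line). Of 12 called lower, all 12 were lower in DKO, and 7 (58.3%) did not overlap, where 9.94% of those genes did so (9.98% of all tested there). The whole set of called genes was less uniform. Of 1173 genes called higher in the Pu.1 line and tested in both, 743 (63.3%) were higher in DKO, with 25.4% apart in that direction and 14.2% apart in the other. Of 1638 called lower, 301 (18.4%) were higher in DKO. Mgl2 read 309.6, 198 and 229 in Daxx-KO and 12.2 and 90.7 in DKO, and Kcnk12 read 1493, 1997 and 1399 in Daxx-KO and 432 and 655 in DKO. The 4 exceptions were all B lineage genes, namely Igll1, Il7r, Pax5 and Pou2af1. Igll1 and Il7r read 72.0 and 0.986 and 165 and 8.88 in DKO, against 20.5 to 229 and 54.7 to 213 in Daxx-KO. Pax5 read 681 and 9.86 in DKO and 83.0 to 1298 in Daxx-KO, and Pou2af1 read 179 and 19.7 against 26.7 to 220. Of 17 B lineage genes tested in both lines, 4 were higher in DKO and none was called. Their median log2 fold change there was -1.10, against 1.51 for the list in the Pu.1 line.

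**Figure D4:**
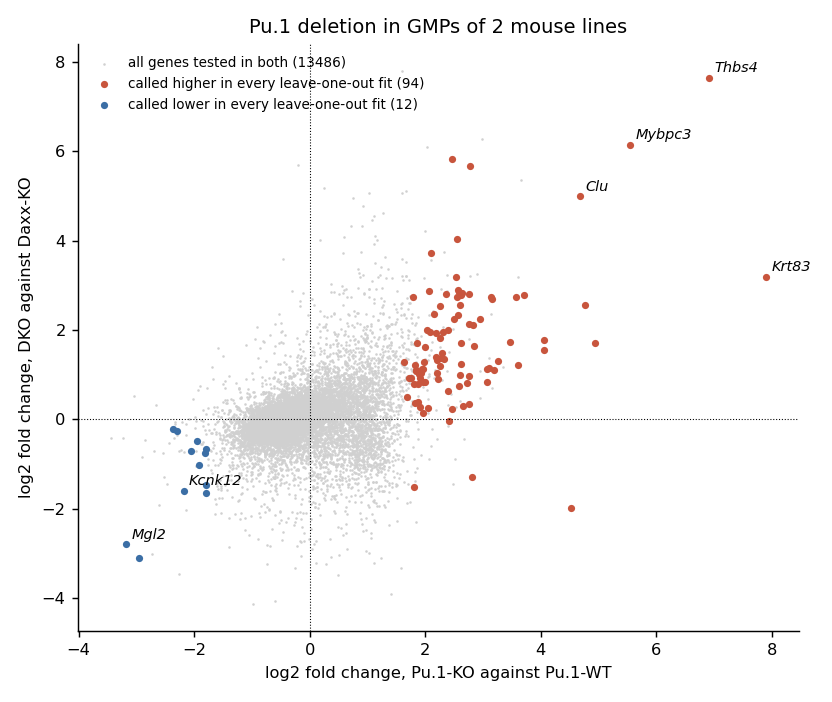
log2 fold change of DKO against Daxx-KO GMPs plotted against that of Pu.1-KO against Pu.1-WT GMPs, for 13486 genes tested in both lines. Red and blue points are genes called higher (94) or lower (12) in the Pu.1 line whichever library was left out. Of the red points 90 lie above 0, and all 12 blue points lie below it.

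The neutrophil and B lineage genes varied within single genotypes of the Daxx line. The Ngp counts were 15250.1, 124824 and 13960.5 for Daxx-KO mice, 110764, 21960.5 and 90664 for their WT controls, and 99132 and 59853 for DKO mice. The libraries of 1 genotype differed widely, and the 3 groups overlapped. Those of Cd177 were 1363, 10989 and 1359 for Daxx-KO mice, 8483, 1849 and 6408 for the controls, and 5904 and 4045 for DKO mice. The summed late neutrophil markers were 40873 to 304779 over the Daxx-KO libraries and 58173 to 308733 over the WT libraries. Ebf1 likewise ran from 316 to 7232 over the Daxx-KO libraries and read 2483 and 17.8 in DKO. Prtn3 was 4278 and 13997 in DKO and 6554 to 13246 in Daxx-KO. The part of this variation between libraries in the Pu.1 line result was not tested.

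**Figure D5:**
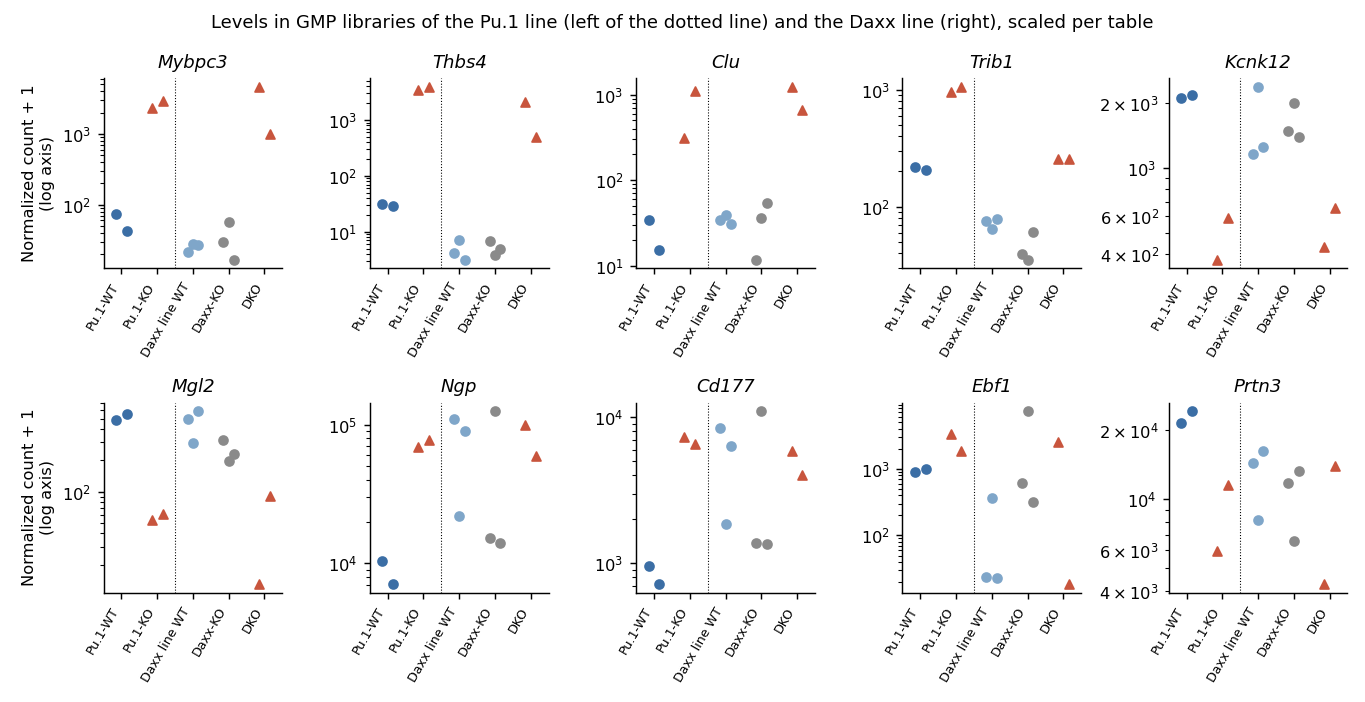
Normalized count + 1 (log axis) of 10 genes in GMPs of the Pu.1 line (left of each dotted line) and of the Daxx line (right), 1 point per library. The tables were normalized separately, so levels are compared within a line. Mybpc3, Thbs4 and Clu separate the genotypes in both lines, while Ngp, Cd177 and Ebf1 vary within genotypes of the Daxx line.

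KLS cells (lineage-negative, c-Kit-positive and Sca-1-positive cells, upstream of GMPs) of the same animals gave 190 calls among 23459 genes (0.81%), 0.469% higher and 0.341% lower. The leading genes were high there too. Thbs4 read 40.7 and 80.2 in WT and 3568 and 1599 in KO, Mybpc3 read 108 and 91.1 in WT and 4894 and 2292 in KO, and Krt83 read 17.6 and 14.3 in WT and 651 and 236 in KO. The KLS library of Pu.1-KO b stood apart. Repeat reads came to 25.8% and 32.9% of gene reads in the WT KLS libraries and to 36.8% and 74.6% in the KO ones. Predicted genes took 2.99% and 3.72% in WT and 3.99% and 8.35% in KO. The part of that library in the KLS calls and in the interaction was not tested. Whether the Pu.1 effect differed between the cell types was tested as an interaction on the recovered reads of all 8 libraries. edgeR called none of 24404 genes, while 1002 had an unadjusted p under 0.05 and DESeq2 called 33. On simulated data this edgeR test recovered 0% of genes changed by 1 and 3.92% of genes changed by 2 on the log2 scale. The lack of calls therefore does not show that the effect was alike in the 2 cell types. The smallest adjusted p among listed genes was that of Ear6, an eosinophil ribonuclease (adjusted p = 0.0557). Ear6 read 238 and 212 in WT and 189 and 296 in KO GMPs, against 529 and 489 in WT and 55.0 and 46.7 in KO KLS cells. Prg2 (adjusted p = 0.118), Prss34 (0.194) and Oas3 (0.236) were higher in KO GMPs and lower in KO KLS cells, without overlap in either. Ear2 and Chil3 complete the 6 smallest. Ear2 read 299 and 234 in WT and 214 and 177 in KO GMPs and 756 and 610.1 in WT and 111 and 48.0 in KO KLS cells. Chil3 read 2078 and 1955 in WT and 2278 and 2771 in KO GMPs and 1965 and 1278 in WT and 471 and 215 in KO KLS cells.

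The balance of rises and falls among repeat subfamilies, which were counted separately from genes, depended on the scaling. The test used TMM, which scales the libraries so that most subfamilies do not change. Of 830 tested, 61 were called higher and 50 lower (edgeR quasi-likelihood test, 13.4%, with 7.35% higher and 6.02% lower). Relative to the plain total of repeat reads, a scaling added after seeing the data, every value moved up by about 0.35 on the log2 scale, and 215 were higher and 5 lower. With library size taken from the gene reads none was called by edgeR, with 118 at an unadjusted p under 0.05. Repeat reads came to 24.7% and 22.3% of gene reads in WT and to 31.2% and 21.7% in KO, so the KO libraries differed from each other more than the WT libraries did.

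Among the classes, 40 of 625 LTR subfamilies (6.4%) were called higher and 15 lower, a share of rises under that of all subfamilies. LINEs gave 17 rises and 11 falls among 155, and satellites 4 and 1 among 7. SINEs, short non-autonomous retroelements, gave no rise and 22 falls among 35 under TMM, but 1 of each relative to the total of repeat reads. Their share of repeat reads was 29.9% and 29.7% in WT and 29.7% and 30.3% in KO.

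The largest rises were in LTR88a (7 and 6 reads in WT, 42 and 53 in KO, log2 2.11), MER67D (37 and 34 in WT, 199 and 132 in KO, log2 1.40) and SUBTEL_sa (43 and 27 in WT, 182 and 114 in KO, log2 1.28). These rest on few reads, and all 3 were also called relative to the total of repeat reads. The largest falls were in X8_LINE (75 and 69 reads in WT, 87 and 24 in KO, log2 -1.27) and MER54B (118 and 101 in WT, 87 and 84 in KO, log2 -1.14), which were not called relative to that total. The third was L1Md_T, an active family of young LINE-1 elements, with 818724 and 691023 reads in WT and 601805 and 605524 in KO (log2 -1.09, SE 0.11, edgeR adjusted p = 4.18e-20). It took 26.4% and 28.9% of repeat reads in WT and 14.3% and 18.6% in KO, and its fall relative to the total was -0.75 (adjusted p = 0.00597).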

How the data were processed

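Total RNA of sorted GMPs (lineage-negative, c-Kit-positive, Sca-1-negative, CD16/32-positive, CD34-positive) was sequenced. Per the submitters' processing notes the tools were CASAVA 1.8.4, cutadapt 1.13, STAR 2.5.3 and DESeq2 1.16.1, on mm10. The authors deposited normalized counts per gene (a signal scaled by 1 size factor per library), and raw counts per repeat subfamily. Dividing by the step of each library gave whole reads for 100% of values, within 0.01.

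Genes with a mean of 10 or more were tested with limma 3.58.1 (R 4.3.3, trended prior) on log2(normalized count + 1), with Benjamini-Hochberg adjustment and a threshold of 0.05. The prior gave every gene the spread of its level, so 1 library can carry a call. Recovered reads and repeat counts were tested with edgeR 4.0.16, and DESeq2 1.42.0 was an alternative. The steps were checked on simulated data, drawn with 1 common spread between libraries for all genes. The simulation held no slope of change with level and no library that stood apart. Its shares therefore do not show how the steps perform on libraries like these. For Pu.1-KO against Pu.1-WT, limma recovered 13.0% of genes changed by 1 and 90.2% of genes changed by 2 on the log2 scale, among 16892 genes.

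Gene names and positions are from GENCODE M21, GRCm38. Strand in the counting is not given in the sources used here, so overlapping and antisense genes are uncertain. An exact test of 2 against 2 cannot go below p = 0.333, so single values have no such test. The members and gene lists were chosen with earlier results of these data known. The rule named the 12 largest rises and 12 largest falls among called, non-overlapping, not predicted genes with a mean of 50 or more in the higher group, up to 4 called and 2 uncalled members of each list, and the 6 smallest interaction p-values among listed genes. Not all of these are printed.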

Additional observations from a re-analysis of the deposited data

How the results depend on the processing

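With 2 libraries per genotype, the number of called genes depends on each library. It ran from 151 to 8163 with 1 library left out, where the lone library was assumed to vary like the other group, and was 0 with no filter on low values (limma, 5289 at an unadjusted p under 0.05, and the fit covers 51810 genes). It was 3034 with edgeR and 3250 with DESeq2. Cyclic loess gave 2336, of which 58.8% were higher, against 51.9% as reported. Spi1 lay between -0.57 and -0.36 with 1 library left out, and was called without Pu.1-KO a (-0.43) and without Pu.1-KO b (-0.50).

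For DKO against Daxx-KO the 8 calls became 17 with a pseudocount of 5, 18 with TMM scaling, 20 with edgeR, 280 with DESeq2 and 5 with a mean of 50 or more, and 0 to 71 with 1 library left out. Repeat calls became 73 with DESeq2, 220 with the total of repeat reads and no TMM factor (97.7% higher, and chosen after seeing the data), 0 with library size from gene reads, 0 with all 8 libraries in 1 fit, and 7 to 187 with 1 library left out. The cause of these moves was not tested. Ear6 turned to -0.01 without Pu.1-WT b and -0.25 without Pu.1-KO b, in a range of -0.25 to 0.40, and Fcnb to 0.066 under cyclic loess.

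Pu.1-KO and Pu.1-WT GMPs came from different animals, so no paired analysis was made between the genotypes. For GMPs against KLS cells the libraries were matched by the animal numbers of the columns. Each library was taken as its deviation from the mean of its 2-library group. These deviations, not the levels, correlated at -0.33 (KO) and -0.11 (WT) between GMPs and KLS cells of 1 animal. The Y-linked gene Ddx3y was high in Pu.1-KO a in both cell types, with 556 and 11.1 in KO GMPs and 1191 and 31.4 in KO KLS cells. With the animal as a replicate block 4 genes were called, and with the pairing crossed, chosen after seeing the data, 233. The 0 calls without a block became 33 with DESeq2, 36 with no filter on low counts and 0 to 9 with 1 library left out.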

Other observations

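Genes of ribosome production, put in 2 lists after their values were seen, were lower in Pu.1-KO GMPs. Of 41 tested genes of ribosome biogenesis 36 were called lower and none higher, with a median log2 fold change of -0.93, and 29 were lower under cyclic loess. Of 73 tested genes of cytosolic ribosomal proteins 34 were called lower and none higher, with a median of -0.78, and 32 were lower under cyclic loess. No ribosome biogenesis gene kept its call whichever library was left out, and 1 ribosomal protein gene did, Rpl10a, with 214 and 206 in WT and 37.0 and 47.9 in KO (log2 -2.29). Ribosomal protein genes have near-identical pseudogene copies, so the split of their reads is uncertain.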
